A study of Mus musculus with 15 samples.

Results

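The genes described here are 10 genes by which an activated lymphocyte takes up and uses nutrients, namely Myc, Slc7a5, Slc3a2, Slc2a1, Slc1a5, Tfrc, Hk2, Ldha, Odc1 and Cad. They were fixed by name, with earlier results of these data known, and every probe set annotated to one of them was used. This gave 22 probe sets on the CD4+ T-cell arrays, out of 45101 probe sets covering 18194 genes. On the thymocyte arrays it gave 20 probe sets, out of 22690 covering 12394 genes. All mice were of the 129/SJ strain. WT mice were littermates of the knockouts, and the knockouts were germline, so that every cell of the mouse lacked the gene. CD4+ T cells were sorted by flow cytometry from the spleens of mice that were WT or lacked N-ras (N-ras KO), and were kept overnight either with 1 µg/ml anti-CD3 and anti-CD28, a low-level TCR stimulus, or without antibody. This gave 4 groups of 3 arrays. Unstimulated thymocytes, the T cells still developing in the thymus, came from 3 mice with 1 array each, of which 1 was WT, 1 lacked N-ras and 1 lacked H-ras (H-ras KO). The sample labels give an age of 6 to 20 weeks for all mice, and the methods give 6 weeks for the thymocyte donors.

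Myc is a transcription factor that binds DNA as a dimer with Max and drives growth and metabolism in cells preparing to divide. A resting T cell lives on little fuel, and engagement of the TCR and CD28 is known to induce Myc and, with it, carriers for amino acids and glucose, the transferrin receptor and enzymes of glycolysis, polyamine synthesis and pyrimidine synthesis. Ras proteins lie between the TCR and the ERK kinases, a route by which the TCR signal reaches the nucleus. The comparisons ask how these genes differed between stimulated and unstimulated CD4+ T cells, whether that difference depended on N-ras, and how the genes stood in thymocytes that lacked N-ras or H-ras.

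The E-box CACGTG is the site that Myc and Max are known to bind, and the GC box GGGCGG is a common element of promoters of housekeeping genes. The RefSeq promoter windows of GRCm38.p6 matched 7 of the 10 genes, and the 250 bases before each transcript start were searched on both strands. The E-box was found in 6.02% and the GC box in 32.7% of all 32851 such windows. Among the matched genes the E-box lay in 1 window of Ldha alone. GC boxes lay in a window of Slc3a2, Slc2a1, Tfrc, Hk2, Ldha, Odc1 and Cad. The windows of 2 genes of glucose metabolism are printed, Hk2 because it had the highest fitted stimulation difference of the 22 probe sets in WT cells and Ldha because it held the E-boxes. They are chr6:82774455-82774704 on the minus strand, with 3 GC boxes whose first bases lie 201, 106 and 38 bases before the start, and chr7:46845554-46845803 on the plus strand, with E-boxes 145 and 48 bases and GC boxes 105 and 67 bases before the start. Capitals mark an E-box or a GC box on either strand, and a match is a description of letters, not of binding.
Hk2: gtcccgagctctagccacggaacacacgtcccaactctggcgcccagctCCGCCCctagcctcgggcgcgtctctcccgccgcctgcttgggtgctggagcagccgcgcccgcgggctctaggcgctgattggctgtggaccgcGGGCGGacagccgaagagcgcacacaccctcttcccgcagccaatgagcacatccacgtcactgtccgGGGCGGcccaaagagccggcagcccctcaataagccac
Ldha: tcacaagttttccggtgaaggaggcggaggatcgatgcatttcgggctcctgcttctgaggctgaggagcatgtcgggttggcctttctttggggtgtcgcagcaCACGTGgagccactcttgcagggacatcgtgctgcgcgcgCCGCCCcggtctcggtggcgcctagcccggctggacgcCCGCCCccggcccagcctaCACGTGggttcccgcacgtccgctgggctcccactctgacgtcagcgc

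All values are the authors' log2 expression after a baseline transformation. On every CD4+ T-cell probe set the 3 unstimulated arrays of each genotype had a median of 0, and so did the 3 thymocyte arrays together. A value is therefore a difference from that baseline and not a level, levels of different genes cannot be ranked, unstimulated WT and N-ras KO cells cannot be compared, and the cell type given in the labels cannot be checked by how bright its markers were. In bulk samples such as these, fewer cells of a type and less RNA per cell cannot be told apart.

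The targeted gene went against the labels on 4 of the 12 CD4+ T-cell arrays. Nras probe set 1454060_a_at stood at 2.04 and 2.09 on the unstimulated and stimulated arrays labelled N-ras KO 3, against -0.04 to 0.51 on the other arrays labelled N-ras KO. It stood at -2.68 and -3.04 on the arrays labelled WT 1, against -0.10 to 0.28 on the other arrays labelled WT. Nras 1422687_at stood at -1.61 on unstimulated and at -0.14 on stimulated WT array 1, so that this probe set sets apart the first of them only. Nras 1422688_a_at stood at -1.23 on both arrays labelled WT 1, against 0.00 to 0.65 on the other arrays labelled WT. It stood at 1.21 and 0.80 on the arrays labelled N-ras KO 3, against -0.65 to 0.40 on the others labelled N-ras KO. Both arrays of WT pair 1 and both of N-ras KO pair 3 are called the doubted arrays below. WT and N-ras KO are therefore used below as the labels of the arrays. The arrays numbered 3 also stood apart, with a mean over 3 Actb control probe sets of 1.37 and 1.42 in WT and -1.19 and -1.56 in N-ras KO, where all other arrays lay between -0.17 and 0.15. Most calls of members and of the genes around them are given with and without the doubted arrays. Only some of these calls are also given without the arrays numbered 3. The part of the arrays in other values was not tested. Leaving out the doubted arrays keeps arrays numbered 3 in WT only, so that such fits carry their shift in WT alone. B cell markers were higher on the stimulated array in all 6 pairs, with a mean over 9 of the 10 listed genes of -0.61 to 0.75 on unstimulated and -0.04 to 1.59 on stimulated arrays. Neutrophil markers, 8 of 10 genes, ranged from -2.06 to 1.88, with the highest means on stimulated N-ras KO arrays 1 and 2, and T cell markers, 9 of 10 genes, from -0.85 to 0.83, with both extremes on arrays numbered 3. The part of these other cells in the results below was not tested.

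After stimulation, Myc, Hk2 and 1 probe set of Tfrc were higher in WT cells by about 2.54-fold, 3.33-fold and 1.78-fold, and no member gene reached the same thresholds in N-ras KO cells. Each probe set was tested with limma over all 12 arrays for the response to stimulation in each genotype, its mean over both genotypes, and the difference between the responses. No probe set of the 45101, and so none of the 22, passed an adjusted p of 0.05 in any of these. At an unadjusted p under 0.05, 262 probe sets (0.581%) were higher and 258 (0.572%) lower after stimulation in WT, and 587 (1.3%) were higher and 575 (1.27%) lower in N-ras KO. The study's thresholds, an unadjusted p of 0.05 and 1.5-fold, were met in WT by 3 of the 22 probe sets, all higher, against a background of 0.53% of all probe sets that were higher. They were Myc 1424942_a_at, Hk2 1422612_at and Tfrc 1452661_at, with no other member gene reaching them. In N-ras KO the count was 0 of 22, against 1.16% higher and 1.19% lower among all probe sets. The methods' t-test on the same values called Hk2 and Tfrc 1452661_at in WT and not Myc, whose unadjusted p was 0.138, with 0.423% of all probe sets called higher.

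In WT, 21 of the 22 probe sets had a fitted difference above 0, with a median of 0.39 log2, where 50.5% of all probe sets were above 0 and their median was 0.00. In N-ras KO, 16 of the 22 were above 0, with a median of 0.23, where 51.7% of all were above 0. With 1 probe set per gene, 10 of 10 genes were above 0 in WT, with a median of 0.44, and 7 of 10 in N-ras KO, with a median of 0.28. Several probe sets report the same transcript on the same arrays, so these counts are not counts of independent observations. After removal of the doubted arrays, 8 of 10 genes were above 0 in WT, with a median of 0.28, and 6 of 10 in N-ras KO, with a median of 0.01.

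The pairs of arrays with 1 number differed among themselves. Within WT, 18, 15 and 22 of the 22 probe sets were higher on the stimulated array of pairs 1, 2 and 3. Within N-ras KO, 7, 15 and 15 were. Among all probe sets 48.3% to 52.7% were higher in any pair. In WT, 11 of the 22 probe sets were higher in all 3 pairs, against 14.5% of all probe sets, and in N-ras KO 3 of the 22, against 13.8%. Only Myc 1424942_a_at and Odc1 1427364_a_at of the 22 were higher in all 6 pairs, a pattern that 2.42% of all probe sets showed.

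**Figure D1:**
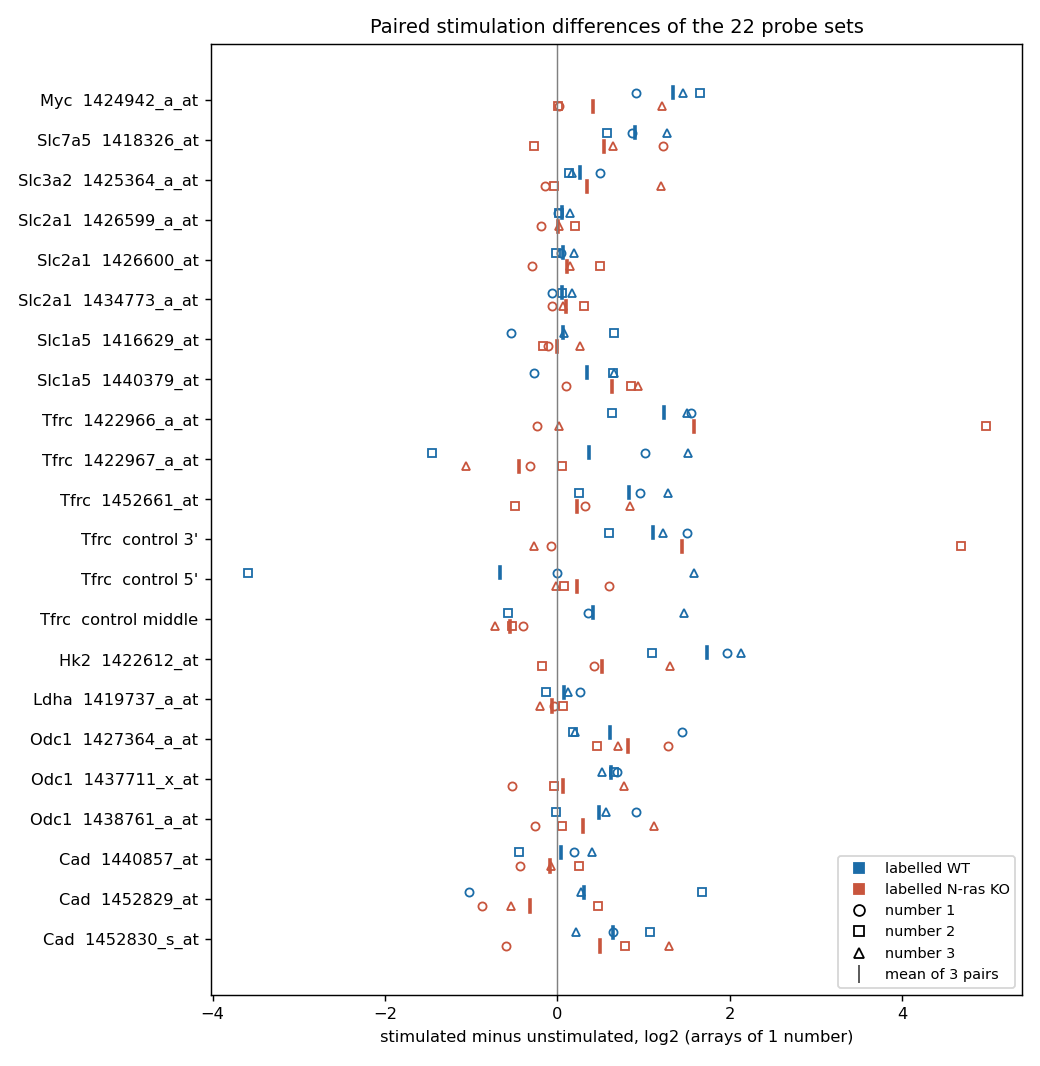
Stimulated minus unstimulated log2 expression for the 22 probe sets (rows), with 1 symbol per pair of arrays of the same number and a bar at the mean of 3 pairs, for arrays labelled WT (blue) and N-ras KO (red). Hk2 and Myc lie to the right of 0 in all 3 WT pairs, the Slc2a1 symbols stay between -0.29 and 0.49, and the Tfrc probe sets scatter from -3.59 to 4.97.

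Myc, on chromosome 15 (61985341 to 61990361, GRCm38.p6), was measured by 1 probe set. Unstimulated WT arrays 1, 2 and 3 stood at 0.00, -1.53 and 0.28 log2, and the stimulated ones at 0.91, 0.13 and 1.74. Unstimulated N-ras KO arrays stood at 0.02, 0.00 and -0.42, and the stimulated ones at 0.04, 0.01 and 0.80. The groups overlapped in both genotypes, since stimulated WT array 2, though 1.66 above its own unstimulated partner, lay below unstimulated array 3. In N-ras KO, pairs 1 and 2 hardly moved, at 0.02 and 0.01, and pair 3 moved by 1.21. N-ras KO pair 3 and WT pair 1 are both made of doubted arrays, and WT pair 1 moved by 0.91. The fitted response was 1.34 log2 in WT (standard error 0.51, unadjusted p = 0.0245, adjusted p = 1, limma) and 0.41 in N-ras KO (standard error 0.51, unadjusted p = 0.436, limma). The WT difference rests in part on 1 unstimulated array: without unstimulated WT array 2 it was 0.79 log2, with an unadjusted p of 0.108 from limma. Myc also missed the study's thresholds in WT without stimulated WT array 1 (1.35 log2, unadjusted p = 0.0502, limma), without stimulated WT array 3 (0.94, unadjusted p = 0.104, limma) and when limma was fitted to the 2 WT groups alone (unadjusted p = 0.0645). When the doubted arrays were left out, the responses were 1.56 in WT (unadjusted p = 0.0673, limma) and 0.01 in N-ras KO. Without the arrays numbered 3 the WT response of Myc was 1.29 (unadjusted p = 0.0472, limma), past the study's thresholds.

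When the arrays were compared in pairs by number, Myc in WT had a standard error of 0.29 and an unadjusted p of 0.00326 from limma, and the adjusted p was still 1. The paired fit brought 5 of the 22 probe sets past the study's thresholds in WT, adding Slc7a5 and Odc1 1437711_x_at to the former 3, against 1.43% of all probe sets. It brought 1 in N-ras KO, Odc1 1427364_a_at, against 2.25%. Its adjusted p values for these calls were 1 in WT and 0.689 in N-ras KO. Averaged over both genotypes, Myc differed by 0.88 log2 and Hk2 by 1.13 log2, the 2 members past the study's thresholds there, against 0.667% of all probe sets. With the doubted arrays left out neither passed, with 0.79 for Myc (unadjusted p = 0.164, limma) and 0.87 for Hk2 (unadjusted p = 0.0769, limma). Myc also lost that call after quantile normalization (0.79, unadjusted p = 0.0583, limma) and without the arrays numbered 3 (0.65, unadjusted p = 0.126, limma). The paired fit of that average had 4 such probe sets, of Myc, Hk2, Slc7a5 and Odc1, against 1.25%.

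**Figure D2:**
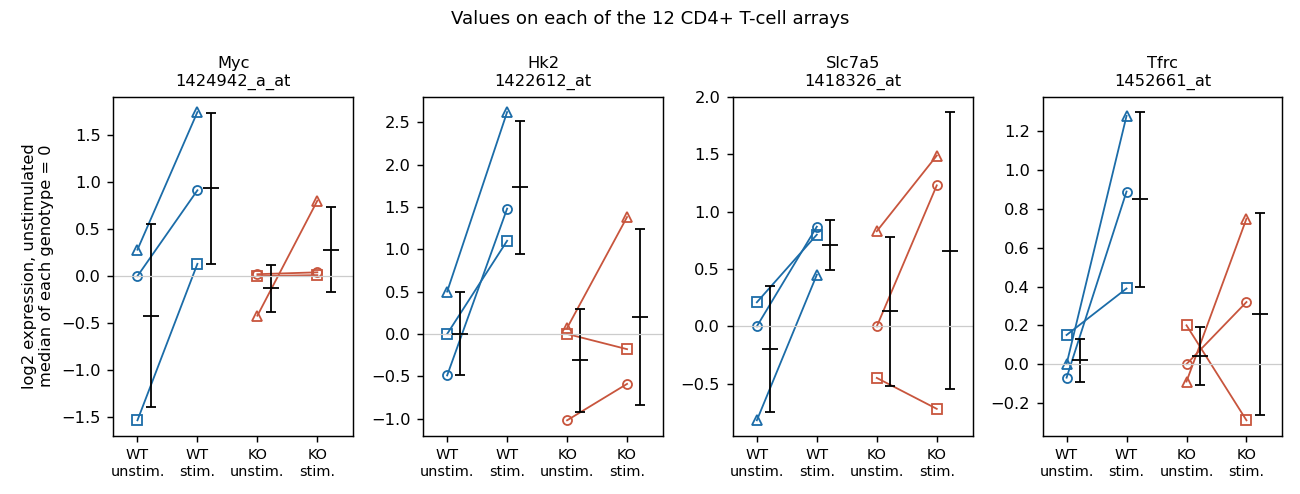
Log2 expression of Myc, Hk2, Slc7a5 and Tfrc 1452661_at on each of the 12 CD4+ T-cell arrays, relative to the unstimulated median of each genotype. Lines join arrays of the same number and black bars give the mean ± SD of 3 arrays. Stimulated WT arrays lie above all unstimulated WT arrays for Hk2, Slc7a5 and Tfrc and overlap for Myc, and the N-ras KO groups overlap in all 4 panels.

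The relatives of Myc, added here for their kinship, lay closer to 0. Mycn, best known from the developing nervous system, differed by -0.11 ± 0.09 (SD, n = 3 pairs) in WT and 0.01 ± 0.19 in N-ras KO. Mycl differed by 0.03 ± 0.08 in WT and -0.23 ± 0.11 in N-ras KO. Over the 12 arrays, the values most like those of Myc were of Nup43, a nuclear pore protein, with a Pearson correlation of 0.932, Kcnc1, a potassium channel, with 0.921, Hnrnpa1, an RNA-binding protein, with 0.907, Il2, the T cell growth factor, with 0.899, and Tmub1 with 0.893. The lowest were of Prpf4b, a splicing kinase, at -0.894, Ncapd3, a condensin subunit, at -0.882, Nrip3 at -0.879, Fgd5 at -0.868 and Prmt9, an arginine methyltransferase, at -0.852. These 10 were taken from the extremes of all probe sets. Among the members, Tfrc 1452661_at (0.732), Hk2 (0.708) and Odc1 1427364_a_at (0.604) followed Myc most closely and Tfrc's 5′ control probe set (-0.389) least. The arrays share their baseline, their pairs and the shift of the arrays numbered 3, so these correlations describe the 12 arrays only.

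Slc7a5 and Slc3a2 form the carrier of large neutral amino acids, in which Slc7a5 transports and Slc3a2, also known as CD98, brings it to the cell surface. Slc7a5 1418326_at, of the gene at chromosome 8 (121881146 to 121907686), stood at 0.00, 0.21 and -0.82 on unstimulated and 0.87, 0.80 and 0.45 on stimulated WT arrays. It stood at 0.00, -0.45 and 0.83 on unstimulated and 1.23, -0.72 and 1.49 on stimulated N-ras KO arrays. The WT groups did not overlap, and the N-ras KO groups did. The response was 0.91 log2 in WT (standard error 0.56, unadjusted p = 0.133, limma, and 0.0221 in the paired fit) and 0.54 in N-ras KO (standard error 0.56, unadjusted p = 0.358, limma). After removal of the doubted arrays, the responses were 0.93 and 0.48, and the paired fit no longer called Slc7a5 in WT (unadjusted p = 0.1, limma).

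Slc3a2 1425364_a_at was higher in all 3 WT pairs by smaller amounts. Its unstimulated WT arrays stood at -0.11, 0.01 and 0.00 and its stimulated ones at 0.38, 0.15 and 0.17, without overlap. The unstimulated N-ras KO arrays stood at 0.04, 0.00 and -0.51 and the stimulated ones at -0.10, -0.04 and 0.69, so that the difference in this genotype came from pair 3 alone. The response was 0.27 log2 in WT, with an unadjusted p of 0.308 from limma, and of 0.379 in the paired fit. When the doubted arrays were left out, it was 0.16 in WT and -0.09 in N-ras KO. Slc7a5, Slc3a2, Hk2 and Tfrc 1452661_at were the 4 of the 22 probe sets whose stimulated WT arrays all lay above the unstimulated ones, against 2.27% of all probe sets. In N-ras KO no member probe set did so, against 2.72%.

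Slc1a5 carries glutamine and other neutral amino acids, and its 2 probe sets did not follow each other (correlation -0.428 over the 12 arrays). Slc1a5 1440379_at was higher in 5 of 6 pairs, with paired differences of -0.27, 0.65 and 0.66 in WT and 0.10, 0.86 and 0.94 in N-ras KO. Slc1a5 1416629_at differed by -0.54, 0.66 and 0.08 in WT and -0.11, -0.17 and 0.26 in N-ras KO. Neither passed the study's thresholds in either genotype, and the fitted response of the first was 0.63 log2 in N-ras KO (unadjusted p = 0.135, limma). Which of the probe sets reports the carrier's mRNA better cannot be read from these values.

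Hexokinase 2, the enzyme that traps glucose in the cell by phosphorylating it and the inducible form in lymphocytes, had the highest fitted WT response of the 22 probe sets. Hk2 1422612_at, of the gene on chromosome 6 (82725025 to 82774454), stood at -0.49, 0.00 and 0.50 on the unstimulated and 1.48, 1.10 and 2.62 on the stimulated WT arrays. On N-ras KO arrays it stood at -1.02, 0.00 and 0.07 without and -0.59, -0.18 and 1.38 with stimulation. Every stimulated WT array lay above every unstimulated one, while the N-ras KO groups overlapped and pair 2 was lower after stimulation. The fitted response was 1.73 log2 or 3.33-fold in WT (standard error 0.57, unadjusted p = 0.0119, adjusted p = 1, limma), with a 95% interval of 0.47 to 2.99. In N-ras KO it was 0.52 log2 (standard error 0.57, unadjusted p = 0.383, limma), with an interval of -0.74 to 1.78. With the doubted arrays left out the values were 1.62 in WT (unadjusted p = 0.0304, limma) and 0.12 in N-ras KO, and without stimulated WT array 3 the WT value was 1.29 (unadjusted p = 0.0537, limma). Without all arrays numbered 3 the WT value was 1.54 (unadjusted p = 0.00787, limma). The other hexokinases did not share the WT difference, with paired means of -0.01 ± 0.65 (SD, n = 3 pairs) for Hk1 and 0.03 ± 0.22 for Hk3.

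The transcripts of a glucose carrier and of lactate dehydrogenase had fitted responses near 0. Slc2a1 encodes GLUT1, the glucose carrier of dividing cells, and its 3 probe sets, 1426599_a_at, 1426600_at and 1434773_a_at, which agreed closely over the 12 arrays (correlations of 0.924 to 0.970), had fitted WT responses of 0.06, 0.07 and 0.06 log2 and N-ras KO responses of 0.01, 0.12 and 0.11. For Slc2a1 1426599_a_at the 95% interval of the WT response ran from -0.62 to 0.74, which holds changes of 1.5-fold in either direction. Slc2a3, the related carrier GLUT3, differed by 0.29 ± 0.41 (SD, n = 3 pairs) in WT and -0.07 ± 0.39 in N-ras KO. Ldha makes the muscle type subunit of lactate dehydrogenase, which turns pyruvate to lactate. Its probe set 1419737_a_at differed by 0.26, -0.13 and 0.12 in the WT pairs and -0.04, 0.07 and -0.20 in the N-ras KO pairs, with a WT response of 0.09 log2 and an interval of -0.70 to 0.87, which also holds changes of 1.5-fold. Slc16a3, a carrier that exports lactate, was higher in all 3 WT pairs, by 0.74, 0.51 and 0.31, and differed by 0.09, -0.35 and 1.42 in the N-ras KO pairs. The E-boxes printed above lie at Ldha, and Hk2, with the highest response, had none in its window. That window of Hk2 covers 250 bases only, and Myc, Slc7a5 and Slc1a5 had no window. Whether these motifs and the responses are related was not tested.

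Tfrc encodes the transferrin receptor, by which cells take up iron, and 6 probe sets are annotated to it, 3 of which are the array maker's control probe sets for the 3′, middle and 5′ parts of the mRNA. Their values differed widely. Tfrc 1452661_at stood at -0.07, 0.15 and 0.00 on unstimulated and 0.89, 0.39 and 1.28 on stimulated WT arrays, without overlap. On N-ras KO arrays it stood at 0.00, 0.20 and -0.09 without and 0.32, -0.29 and 0.75 with stimulation, with overlap. Its response was 0.83 log2 in WT (standard error 0.30, unadjusted p = 0.018, adjusted p = 1, limma) and 0.23 in N-ras KO (standard error 0.30, unadjusted p = 0.463, limma). Without the arrays numbered 3 the WT value was 0.60 (unadjusted p = 0.0809, limma), and without the doubted arrays it was 0.76 (unadjusted p = 0.0845, limma).

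The other 5 Tfrc probe sets fell into 2 sets that followed each other. Tfrc 1422966_a_at and the 3′ control followed each other with a correlation of 0.994 and were dominated by N-ras KO pair 2, in which the first went from -2.81 to 2.15 and the second from -2.24 to 2.45. Their WT responses of 1.23 and 1.11 log2 were larger than that of 1452661_at, but with standard errors of 1.18 and 1.11. The middle control was lower on every stimulated N-ras KO array, at -0.50, -0.53 and -0.52, than on the unstimulated ones, at -0.09, 0.00 and 0.19, a direction of separation that 2.22% of all probe sets showed, while its WT groups overlapped. The 5′ control stood at 3.45 on unstimulated WT array 2 and between -0.29 and 1.59 on the other 11 arrays, and its WT response was -0.66 log2, the only one of the 22 below 0 in WT. Tfrc 1422967_a_at followed the middle control (correlation 0.822) and the 5′ control (0.807), which followed each other less closely (0.598). It differed by 1.02, -1.45 and 1.52 in the WT pairs and by -0.32, 0.05 and -1.06 in the N-ras KO pairs, with responses of 0.37 and -0.44 log2. The difference between the 3′ and the 5′ control ran from -2.72 to 2.89 log2 over the 12 arrays, where the same difference for Actb ran from -0.41 to 0.46 and for Gapdh from -0.82 to 0.48. No direction is therefore given for Tfrc as a gene, and its call in WT belongs to 1452661_at.

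**Figure D3:**
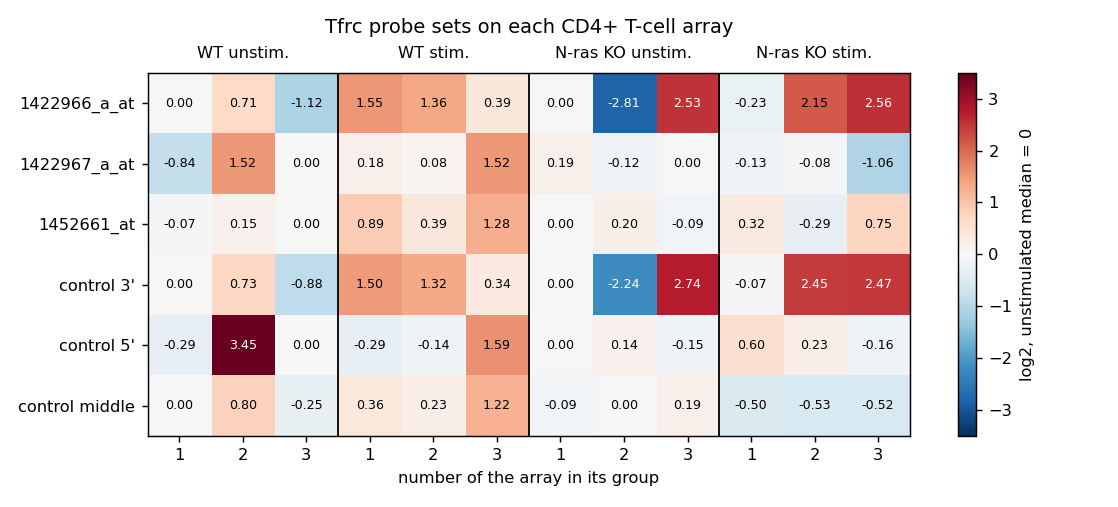
Log2 expression of the 6 Tfrc probe sets (rows) on the 12 CD4+ T-cell arrays (columns, in 4 groups of 3), relative to the unstimulated median of each genotype, with the value in each cell. Tfrc 1422966_a_at and the 3′ control share the extremes of N-ras KO arrays 2 and 3, and the 5′ control stands at 3.45 on unstimulated WT array 2.

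Odc1 encodes ornithine decarboxylase, which makes putrescine, the first step of polyamine synthesis, and Cad the enzyme of the first steps of pyrimidine synthesis. Odc1 1427364_a_at stood at 0.00, -0.02 and 1.19 on unstimulated and 1.45, 0.16 and 1.39 on stimulated WT arrays. On N-ras KO arrays it stood at 0.00, 0.93 and -0.05 without and 1.29, 1.39 and 0.65 with stimulation. All 6 pairs were higher after stimulation, and the groups overlapped in both genotypes. The response was 0.61 log2 in WT (standard error 0.46, unadjusted p = 0.215, limma) and 0.82 in N-ras KO (standard error 0.46, unadjusted p = 0.105, limma, and 0.0342 in the paired fit), so that Odc1 by this probe set was the member gene with the highest fitted response in N-ras KO apart from Tfrc 1422966_a_at and the 3′ control of Tfrc. After removal of the doubted arrays, the responses were 0.19 in WT and 0.88 in N-ras KO, with an unadjusted p of 0.027 for the second in the paired fit. The other Odc1 probe sets, 1437711_x_at and 1438761_a_at, followed each other (correlation 0.937) and carried the shift of the arrays numbered 3, from -2.05 to 2.63 and from -1.37 to 2.45. The first of them, whose suffix marks probes that can bind other transcripts, differed by 0.69, 0.66 and 0.52 in the WT pairs and by -0.53, -0.04 and 0.77 in the N-ras KO pairs.

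The 3 Cad probe sets, 1440857_at, 1452829_at and 1452830_s_at, gave WT responses of 0.05, 0.31 and 0.65 log2 and N-ras KO responses of -0.08, -0.31 and 0.50, none past the study's thresholds. Only Cad 1452830_s_at, which can also bind related transcripts, was higher in all 3 WT pairs, by 0.65, 1.08 and 0.22. Cad 1452829_at ranged from -1.02 to 1.68 over the same pairs. Correlations between the Cad probe sets were -0.382, 0.144 and 0.484.

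Whether the responses depended on N-ras was asked of their difference, WT minus N-ras KO. No member probe set passed the study's thresholds, against 0.665% of all probe sets higher and 0.627% lower. The difference was 0.93 log2 for Myc (95% interval -0.67 to 2.53, unadjusted p = 0.226, limma), 1.22 for Hk2 (-0.57 to 3.00, unadjusted p = 0.161, limma) and 0.61 for Tfrc 1452661_at (-0.32 to 1.53, unadjusted p = 0.178, limma). The intervals of these 3 include 0 and also differences larger than the whole WT response of the same probe set. For Slc7a5 the difference was 0.37 (-1.38 to 2.12) and for Odc1 1427364_a_at -0.21 (-1.65 to 1.24). The other Odc1 probe sets, 1437711_x_at and 1438761_a_at, had 0.56 and 0.18. Those of Tfrc disagreed, with -0.89 for the 5′ control, -0.36 for 1422966_a_at, -0.34 for the 3′ control and 0.81 for 1422967_a_at. The Tfrc middle control had 0.97 (-0.03 to 1.97, unadjusted p = 0.0555, limma). Of the 22 differences, 14 were above 0, with a median of 0.14, where 49.1% of all probe sets were above 0. The response of Myc, Hk2 or Tfrc passing a threshold in WT and not in N-ras KO thus does not show that the genotypes differed.

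In the paired fit, 1 member probe set passed the study's thresholds for the difference, Hk2 (standard error 0.47, unadjusted p = 0.0395, adjusted p = 0.961, limma), against 2.28% of all probe sets. Its paired differences of 1.97, 1.10 and 2.13 in WT and 0.43, -0.18 and 1.31 in N-ras KO still overlapped, since N-ras KO pair 3 lay above WT pair 2. Those of Myc did so as well, with 0.91 in WT pair 1 and 1.21 in N-ras KO pair 3. When the doubted arrays were left out, the paired fit had 3 such probe sets, Hk2, Myc and Odc1 1437711_x_at, against 2.73%, with differences of 1.49, 1.55 and 0.88 and adjusted p values of 0.863 to 0.874 (limma). Without the arrays numbered 3, the unpaired difference of Hk2 was 1.42 (unadjusted p = 0.0438, limma). In the paired fit without the doubted arrays N-ras KO is left with pairs 1 and 2, and WT with pairs 2 and 3.

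The stimulated cells of both labels were also set against each other, which on these values compares changes from each genotype's own baseline. In this comparison, 2 of the 22 probe sets were higher in WT at the study's thresholds, against 3.33% of all probe sets, and none was lower, against 3.57%. Hk2 was higher by 1.53 log2 (standard error 0.57, unadjusted p = 0.022, adjusted p = 0.596, limma), with the stimulated WT arrays at 1.10 to 2.62 and the stimulated N-ras KO arrays at -0.59 to 1.38. The methods' t-test did not call it (unadjusted p = 0.113), nor did limma without stimulated WT array 3 (1.09 log2, unadjusted p = 0.0943) or without stimulated N-ras KO array 1 (1.14, unadjusted p = 0.0911) or 2 (1.34, unadjusted p = 0.07). Without the doubted arrays it was 2.25 (unadjusted p = 0.00745, limma), but array 3, at 2.62, then stays in WT only. The part of the shift of the arrays numbered 3 in this larger value was not tested. With all arrays numbered 3 left out, Hk2 was still higher in WT past the study's thresholds, against 6.0% of all probe sets. The Tfrc middle control was higher by 1.12 log2 (standard error 0.32, unadjusted p = 0.00524, adjusted p = 0.53, limma), with stimulated WT arrays at 0.23 to 1.22 and N-ras KO arrays at -0.53 to -0.50. The other Tfrc probe sets had -0.56 (3′ control), -0.40 (1422966_a_at), 0.17 (5′ control), 0.59 (1452661_at) and 1.02 (1422967_a_at). The highest value of the 22 was 1.75 for Odc1 1437711_x_at (unadjusted p = 0.0657, limma), while Odc1 1438761_a_at had 0.86 and 1427364_a_at -0.11. At an unadjusted p under 0.05, 1615 of all probe sets (3.58%) were higher and 1812 (4.02%) lower, and none passed an adjusted p of 0.05 with limma.

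The genes around the members were followed in 8 lists, with 1 probe set per gene. The lists, like the members, were chosen with earlier results of these data known, so their counts are a description and no independent support. From each list the 4 genes with the smallest p in the mean response are given, so that their size is a matter of choice and a description only. Among 20 other known targets of Myc, which the members are not part of, 19 were above 0 in WT, with a median of 0.57 log2 against 0.01 for all genes. This list holds Ncl, which the paper had already reported from these arrays as higher in stimulated WT than in stimulated N-ras KO cells. Only Pus7, a pseudouridine synthase, passed the study's thresholds, with 0.90 log2 (unadjusted p = 0.0263, adjusted p = 1, limma) and paired differences of 0.52, 1.01 and 1.18. That is 1 of 20, against 0.605% of all genes, and without the doubted arrays it was 0 of 20, with Pus7 at 1.09 (unadjusted p = 0.0652, limma). In N-ras KO the pairs of Pus7 stood at 1.05, -0.45 and 0.19. Nolc1, a nucleolar protein, differed by 1.35, 0.39 and 0.99 in the WT pairs and by 0.27, 0.73 and -0.12 in the N-ras KO pairs. Hspd1, a mitochondrial chaperonin, differed by 0.53, 0.61 and 0.84 in WT and by -0.30, 0.17 and 0.16 in N-ras KO. Ccnd2, a D-type cyclin, was higher in all 6 pairs, with 0.89 log2 in WT and 0.93 in N-ras KO. In N-ras KO, 14 of 20 were above 0, with a median of 0.11, and none passed. The difference of the responses was above 0 for 19 of 20, with a median of 0.34, and none passed there either, against 0.616% higher. With the doubted arrays left out the medians were 0.66 in WT, -0.02 in N-ras KO and 0.51 for the difference, and without the arrays numbered 3 the WT median was 0.39. The medians of the 3 WT pairs, 0.38 to 0.65, lay above those of the 3 N-ras KO pairs, -0.07 to 0.22. The genes of a list share arrays, so their number says nothing about how many mice would show this.

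**Figure D4:**
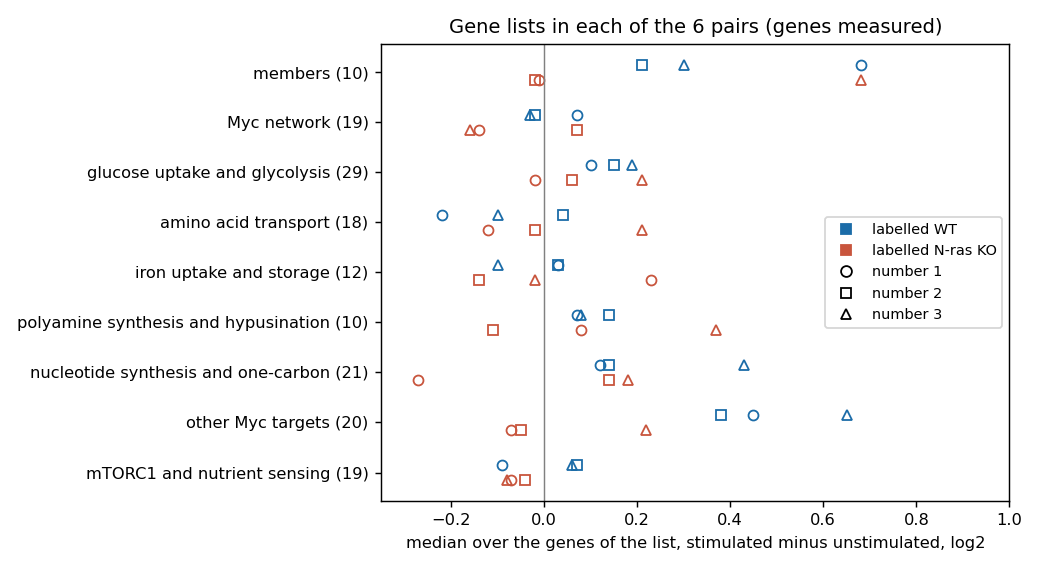
Median over the genes of each list of stimulated minus unstimulated log2 expression, with 1 symbol per pair of arrays, for arrays labelled WT (blue) and N-ras KO (red), and the number of genes measured in parentheses. The other Myc targets are the list whose 3 WT pairs, at 0.38 to 0.65, all lie to the right of its 3 N-ras KO pairs, at -0.07 to 0.22, while most other lists lie near 0. The lists were chosen with earlier results of these data known.

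Genes of nucleotide synthesis and one-carbon metabolism were above 0 in WT in 19 of 21 cases, with a median of 0.27. In N-ras KO 9 of 21 were, with a median of -0.02. Among all probe sets 50.5% were above 0 in WT and 51.7% in N-ras KO. None of the 21 passed the study's thresholds in either. The methods' t-test called 2 in WT, against 0.423% of all probe sets higher and 0.355% lower. Without the doubted arrays limma called 1 in WT, against 0.736% higher and 0.918% lower. Mthfd2, a mitochondrial folate enzyme of dividing cells, differed by 0.59, 0.68 and 1.01 in the WT pairs and by -0.16, 0.37 and 0.68 in the N-ras KO pairs. Mthfd1l, of the same folate pathway, was higher in all 6 pairs, with 0.39 in WT and 0.19 in N-ras KO. Shmt2, the mitochondrial serine hydroxymethyltransferase, stood at 0.52 and 0.53, and Umps, of pyrimidine synthesis, at 0.27 and 0.17. By the mean of their pairs, Mthfd2, Mthfd1l, Shmt2 and Umps were thus higher after stimulation in both genotypes. Without the arrays numbered 3, 14 of the 21 were above 0 in WT, with a median of 0.17. Of 29 genes of glucose uptake and glycolysis, 2 passed in WT, Hk2 and Pgam1, the phosphoglycerate mutase, at 0.76 log2 (unadjusted p = 0.0308, adjusted p = 1, limma), and none in N-ras KO, against 0.605% and 1.02% of all genes higher. In WT the count was 1 of 29 by the methods' t-test and also without the doubted arrays, where Pgam1 was 0.83 (unadjusted p = 0.0818, limma). The list's median was 0.09 in both genotypes. Pgam1 differed by 0.61, 0.83 and 0.83 in the WT pairs and 0.11, -0.38 and 0.35 in the N-ras KO pairs. Eno2, an enolase, was higher in all 6 pairs, with 0.41 in WT and 0.88 in N-ras KO, and Pfkfb3, which makes an activator of phosphofructokinase, stood at 0.22 and 0.52. These 2 had the higher fitted response in N-ras KO.

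Of 18 amino acid transport genes, 1 passed in WT, Slc7a6, a carrier of cationic and neutral amino acids that also pairs with Slc3a2, at 0.92 log2 (unadjusted p = 0.0113, adjusted p = 1, limma), against 0.605% of all genes higher. Slc7a6 differed by 1.09, 0.67 and 1.00 in the WT pairs and -1.03, 0.23 and 0.30 in the N-ras KO pairs. It was the only gene of this list past the study's thresholds for the difference of the responses, at 1.09 log2 (unadjusted p = 0.0274, adjusted p = 1, limma), against 0.616% of all genes higher. After removal of the doubted arrays, both calls of Slc7a6 were lost, at 0.84 in WT (unadjusted p = 0.0926, limma) and 1.24 for the difference (unadjusted p = 0.0818, limma). Slc36a1, a lysosomal amino acid carrier, was the 1 gene of the list that passed in N-ras KO, at -0.89 log2 (unadjusted p = 0.0326, adjusted p = 1, limma), against 0.962% of all genes lower, and without the same arrays it was -0.69 (unadjusted p = 0.0825, limma). Slc6a6, the taurine carrier, differed by 0.91, 1.08 and 0.93 in the WT and 0.46, 0.01 and -0.02 in the N-ras KO pairs, and Slc7a11, the cystine carrier, stood at -0.60 in WT and 0.02 in N-ras KO. The list's median was -0.06 in WT and -0.01 in N-ras KO.

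Among 19 genes of the Myc network, Myc and Usp28, a deubiquitinase of Myc, passed in WT, the second at -0.73 log2 (unadjusted p = 0.0378, limma), with 0.385% of all genes lower, and none passed in N-ras KO. When the doubted arrays were left out, neither passed, with Usp28 at -0.65 (unadjusted p = 0.0689, limma). Ruvbl1 and Ruvbl2, a pair of ATPases that join Myc in chromatin complexes, stood at 0.56 and 0.66 in WT and at 0.38 and 0.71 in N-ras KO, each higher in 5 of 6 pairs. Mga, which binds Max in place of Myc, stood at -0.20 in WT and -0.97 in N-ras KO, with N-ras KO pairs from -2.45 to 1.01.

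Iron uptake and storage had Tfrc as its 1 gene past the thresholds among 12 in WT and none in N-ras KO, against 0.605% and 1.02% of all genes higher, and none in WT without the doubted arrays. Hmox1, a heme oxygenase of that list, differed by 1.15, 0.38 and 0.57 in the WT and 1.70, 0.16 and 1.04 in the N-ras KO pairs, with an unadjusted p of 0.0508 for the mean response from limma. Ireb2 and Aco1, the iron regulatory proteins, stood at -0.03 and -0.34 in WT and -0.26 and -0.09 in N-ras KO, and Slc40a1, the iron exporter, at -0.17 and -0.26. None of 10 polyamine genes and none of 19 genes of mTORC1 and nutrient sensing passed in either genotype. Without the doubted arrays 1 of the 19 did in WT, where that fit called 0.736% of all probe sets higher and 0.918% lower. Srm, the spermidine synthase that follows Odc1, differed by 0.76, 1.75 and 1.49 in the WT and -0.16, -0.18 and 0.82 in the N-ras KO pairs. Azin1, which protects Odc1 from its antizyme, was higher in all 6 pairs, by 0.18 to 0.39. Smox, the spermine oxidase, stood at -0.01 in WT and 0.55 in N-ras KO and Oaz2, an antizyme, at -0.09 and -0.16. Of the nutrient sensors, Tsc1 stood at 0.56 and 0.62, Tsc2 at -0.40 and -0.52, Rragc at -0.07 and -0.35 and Lamtor2 at -0.27 and -0.35 in WT and N-ras KO. These 4 had the same sign in both genotypes.

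Among the markers of other cells, B cell genes had 1 of 9 past the thresholds in each genotype, Fcer2a in WT at 2.89 log2 (unadjusted p = 0.00523, limma) and Blnk in N-ras KO at 2.33 (unadjusted p = 0.0025, limma), against 0.605% and 1.02% of all genes higher. Of the erythroid genes 1 of 6, Gata1, passed in WT and of the NK and cytotoxic genes 1 of 7, Eomes, in N-ras KO. With the doubted arrays left out the calls of Fcer2a, Blnk and Gata1 remained and that of Eomes was lost (0.92 log2, unadjusted p = 0.275, limma). In the fit of all arrays none of the T cell, immature thymocyte, neutrophil or macrophage and dendritic cell markers passed in either. Neutrophil markers were above 0 in 1 of 8 cases in WT (median -0.09) and 8 of 8 in N-ras KO (median 1.0). For the difference of the responses 0 of 8 were above 0, with a median of -1.22. In stimulated WT minus stimulated N-ras KO, 2 of 8, Ngp and Camp, were lower past the thresholds, against 2.98% of all genes. The median of the 8 there was -1.93, and that of 9 T cell markers 0.44. Blnk and Eomes also passed as lower. The part of these cells in member results was not tested.

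The paired fit gave higher counts for several of these lists, and for all genes. In it 6 of the 20 other Myc targets were higher past the study's thresholds in WT and 1 in N-ras KO, against 1.59% and 2.07% of all genes. In WT the paired fit counted 3 of the 29 glucose genes, 3 of the 18 amino acid transport genes, 2 of the 21 nucleotide and one-carbon genes and 1 of the 10 polyamine genes as higher. In N-ras KO it counted 1 glucose, 1 polyamine and 1 iron gene. For the difference of the responses the glucose list had 3 genes past the thresholds with the higher response in WT, the amino acid list 2, the nucleotide list 2, the polyamine list 1 and the other Myc targets 1, against 2.23% of all genes.

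In thymocytes each genotype had 1 array, so the values have no replicate check and no p. Nras was lower on the N-ras KO array, by 1.81, 2.46 and 2.38 log2 on its 3 probe sets in WT minus N-ras KO, and close to the WT value on the H-ras KO array. Most member probe sets lay near 0. WT minus N-ras KO was above 0 for 15 of the 20 probe sets, with a median of 0.12 log2, where 35.7% of all probe sets were above 0 and 23.7% were at 0 on all 3 arrays. WT minus H-ras KO was above 0 for 13 of the 20, with a median of 0.05, where 31.9% of all were. Both comparisons use the same WT array, so they are given side by side and not as support for each other.

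A difference of 1.5-fold was reached in WT minus N-ras KO by 1 of the 20 probe sets, Tfrc 1422967_a_at at 0.59 log2 or 1.51-fold, against 1.09% of all probe sets higher and 1.55% lower. The 6 Tfrc probe sets stood lower on the N-ras KO array than on the WT array in every case, by 0.09 to 0.59 log2. On the H-ras KO array Tfrc was at -0.13 to 0.18 in WT minus H-ras KO. In WT minus H-ras KO the 1 probe set past 1.5-fold was Slc1a5 1416629_at, at 1.26 log2 or 2.39-fold, against 1.51% higher and 1.47% lower. Its values were 0.00 on the WT, 0.10 on the N-ras KO and -1.26 on the H-ras KO array. Of all probe sets, 99.5% had a WT minus H-ras KO difference that was no larger in size. At 2-fold, 0 of the 20 passed in WT minus N-ras KO, against 0.419% higher and 0.397% lower, and Slc1a5 1416629_at alone passed in WT minus H-ras KO, against 0.516% higher.

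Odc1 stood above both knockouts on the WT array on all 3 probe sets, by 0.09, 0.32 and 0.46 log2 over N-ras KO and 0.05, 0.32 and 0.24 over H-ras KO. Cad went the other way on both probe sets, by -0.11 and -0.04 against N-ras KO and -0.29 and -0.24 against H-ras KO. Myc was at 0.06 in both comparisons, Hk2 at 0.05 and 0.13, Slc7a5 at 0.00 and -0.07 and Ldha at 0.16 and 0.09, all within 1.5-fold. Of the lists, Hspd1 was higher by 0.59 and Ddit4, an inhibitor of mTORC1, and Pdk1, a kinase that restrains pyruvate dehydrogenase, stood at -0.68 and -0.67 in WT minus N-ras KO. In WT minus H-ras KO, Ccnd2 was higher by 0.81, and Pdk1 and Slc25a37, the mitochondrial iron carrier, stood at -0.66 and -0.90. Of 8 neutrophil markers, 7 were higher past 1.5-fold in both comparisons, against 1.11% of all genes in WT minus N-ras KO and 1.61% in WT minus H-ras KO. Their medians, 1.45 and 2.01, were larger than the value of any member in the same comparison. The marker mean was 1.39 on the WT array, -0.02 on the N-ras KO and -0.41 on the H-ras KO array. Of 9 B cell markers 3 were higher past 1.5-fold in WT minus H-ras KO, against 1.61% of all genes, and the H-ras KO array had a mean of -0.38. The part of these cells in the member values was not tested.

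**Figure D5:**
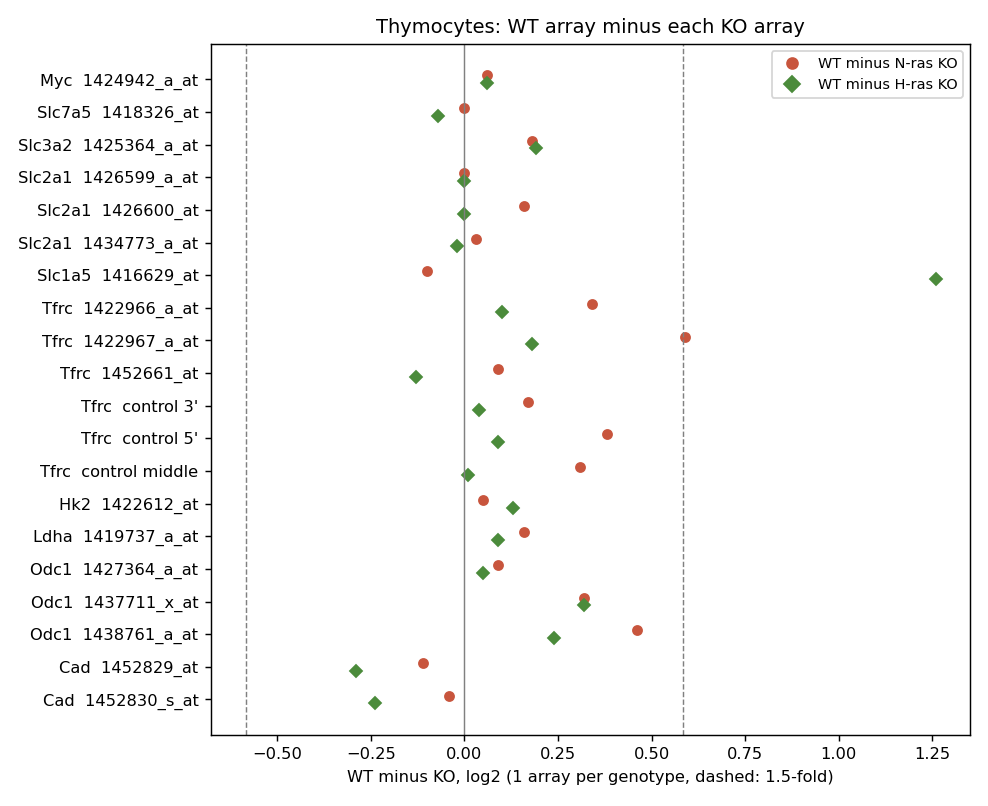
WT minus N-ras KO (circles) and WT minus H-ras KO (diamonds) in log2 for the 20 probe sets of the member genes in thymocytes, with 1 array per genotype and dashed lines at 1.5-fold. Slc1a5 1416629_at at 1.26 in WT minus H-ras KO and Tfrc 1422967_a_at at 0.59 in WT minus N-ras KO are the 2 points past the lines.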

How the data were processed

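Expression was measured on Affymetrix arrays, 12 for CD4+ T cells (45101 probe sets) and 3 for thymocytes (22690 probe sets), although the methods name 1 array type. The authors deposited log2 values, made with RMA according to the submitters' notes (RMA-16 in GeneSpring per the methods, which add quantile normalization and then a baseline set to the median of the control arrays). Low-yield samples were amplified before labelling, and the arrays concerned are not stated. The deposited values hold no brightness, so no filter on dim probe sets could be run, and precision is limited by how many arrays there are. Of the probe sets, 34958 had 1 gene, 932 several and 9211 none on the CD4+ T-cell arrays, and 20393, 691 and 1606 on the thymocyte arrays, by GEO's platform annotation, with positions from RefSeq GRCm38.p6.

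Values were fitted with limma 3.58.1 under R 4.3.3, using lmFit and eBayes with 1 mean per group over the 12 arrays. Tests were two-sided, p-values were adjusted by Benjamini-Hochberg across all probe sets, and the script was tested on simulated data. Its p-values measure the spread between these arrays, since the methods say both that a different mouse was used per condition and that sorted cells were divided. The members and gene lists were chosen with earlier results of these data known. Every member probe set is named, and of each list of pathway genes 4 genes beside the members with the smallest p in the mean response, up to 3 past 1.5-fold in thymocytes, and the 5 genes most and least like Myc. Genes named for being the only ones past a threshold and relatives of members (Mycn, Mycl, Slc2a3, Hk1, Hk3) are outside that rule and were chosen with values in view. A gene with several probe sets counts by 1, an _at set before _a_at, _s_at and _x_at, then the lowest ID.

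Arrays with the same number deviated together within a genotype (correlations 0.458, 0.447 and 0.738 in WT, 0.361, 0.394 and 0.626 in N-ras KO), so the paired fit blocks by number within genotype. Alternatives were the methods' t-test, a fit of 2 groups, blocks by number, quantile normalization, median centring, array weights, leaving out the least variable probe sets, cross-hybridizing probe sets, each array, and the arrays labelled WT 1 and N-ras KO 3. The fits without all arrays numbered 3, and the paired fit without the arrays labelled WT 1 and N-ras KO 3, were added after the values were seen.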

Additional observations from a re-analysis of the deposited data

How the results depend on the processing

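Counts of member probe sets past the study's thresholds were 3 in WT, 0 in N-ras KO, 2 for the mean response, 0 for the difference of the responses and 2 for stimulated WT minus stimulated N-ras KO. The replicate block within genotype gave 5, 1, 4 and 1 for the first 4, and the block by number gave 1 for the difference. Without the arrays labelled WT 1 and N-ras KO 3 the counts were 1 in WT and 0 for the mean, and with the block as well 1 in N-ras KO and 3 for the difference. Without the arrays numbered 3 the counts were 2 in WT, where Tfrc 1452661_at was lost, and 1 for the difference. The mean then had 2, with Odc1 1427364_a_at in place of Myc, and the stimulated comparison 3, with Cad 1452830_s_at added. Array weights gave 3 members for the mean, with Odc1 1427364_a_at added. The fit of 2 groups kept 3 in WT, but with Slc7a5 in place of Myc, and gave 3 for the stimulated comparison, with Odc1 1437711_x_at added. Quantile normalization left 1 for the mean, Hk2, and the methods' t-test 1 for the stimulated comparison. In thymocytes WT minus N-ras KO had 0 past 2-fold. Leaving out 1 array at a time gave 0 to 4 in WT (0 without stimulated WT array 3, where Myc was 0.94 and Tfrc 1452661_at 0.62), 0 to 2 in N-ras KO, 1 to 4 for the mean, 0 to 1 for the difference and 1 to 3 for the stimulated comparison. Probe sets at an adjusted p of 0.05 (limma) numbered 0 to 0 in WT, 0 to 9 in N-ras KO, 0 to 3 for the mean, 0 to 0 for the difference and 0 to 13 for the stimulated comparison, with 9 and 13 both without stimulated N-ras KO array 3, 2 and 3 without stimulated N-ras KO array 2, and 3 for the mean without unstimulated N-ras KO array 1. Array weights gave 1 for the stimulated comparison. The block by number changed no other count of members. Over all probe sets, those past the study's thresholds numbered 239 higher and 230 lower in WT, against 645 and 617 with the block within genotype, 650 and 727 with array weights, 332 and 414 without the arrays labelled WT 1 and N-ras KO 3 and 635 and 694 without those numbered 3. In N-ras KO they numbered 522 and 535, against 1017 and 1196 with the block, 1052 and 822 with array weights, 873 and 862 without the arrays numbered 3, 282 and 262 after quantile normalization and 175 and 230 by the methods' t-test. For the difference they numbered 300 and 283, against 1027 and 832 with the block, 768 and 870 with array weights, 450 and 588 without the 4 arrays labelled WT 1 and N-ras KO 3, 860 and 796 without those numbered 3, 161 and 152 after quantile normalization and 198 and 185 with the least variable probe sets left out. No fitted direction of a member past the thresholds turned under any alternative, with the WT response at 0.79 to 1.74 for Myc, 1.29 to 2.05 for Hk2 and 0.62 to 1.06 for Tfrc 1452661_at when 1 array was left out. The cause of these shifts was not tested, except that fewer arrays enter the fits that leave some out. A filter on dim probe sets was not run, as the values hold no brightness.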
